A study of Macaca mulatta with 24 samples.

Results

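The proteasome subunits are the proteins that build the cell's main protease for ubiquitin-tagged proteins, and their transcripts were followed here in visceral fat of female rhesus macaques. The list held 38 genes, namely 14 of the constitutive 20S core, 3 of the immunoproteasome, 17 of the 19S regulatory particle and 4 activators. An Ensembl gene ID could be assigned to 34 of them, among 32386 genes in the count table. All 34 passed the filter on low counts and were tested with 15207 genes in all. PSMA5, PSMB6, PSMB7 and PSMB10 had no ID in the name tables and were not analysed here. Membership followed from gene names.

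Omental white adipose tissue (WAT) was biopsied from 24 young adult females in year 3 of treatment, and RNA-seq gave 1 library for each animal. Control animals (C) carried cholesterol implants and ate monkey chow, T animals carried testosterone implants that mimic hyperandrogenemia and ate chow, WSD animals carried control implants and ate a high-fat western-style diet, and T+WSD animals received testosterone together with that diet. Each group held 6 animals, labelled as 4 years old (the study's methods give a higher age at biopsy), and the animals are separate individuals. The sequenced animals were picked by the study as representative of their groups, so the spread between them can be narrower than in the full cohort. The adipocyte markers ADIPOQ, PLIN1 and LEP were detected in every library.

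The 20S core is a barrel of stacked rings in which PSMA subunits form the outer alpha rings and PSMB subunits the inner beta rings, where the catalytic sites sit. The 19S particle caps the barrel, and its PSMC ATPases unfold the substrate while its PSMD subunits bind and remove ubiquitin and hold the lid together. In cells exposed to interferon, PSMB8, PSMB9 and PSMB10 replace the constitutive catalytic subunits PSMB5, PSMB6 and PSMB7 to form the immunoproteasome, and the PSME1 and PSME2 activator is induced with them, which favours peptides for MHC class I. In brown fat the transcription factor NFE2L1 is known to sustain proteasome supply during cold adaptation.

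Library totals ranged from 6899185 to 28270776 counts, and a single member had 32 to 6554 counts in a library. In 8 libraries, 2 of each group (C1, C2, T13, T14, WSD19, WSD20, T+WSD7 and T+WSD8), a single unnamed gene, the dominant gene, took 9.92 to 54.7% of all counts, against 0.879 to 2.51% in the other 16. The 34 members together took 0.0986 to 0.295% of the counts. Levels are given as TMM-scaled CPM, the counts divided by the scaled library total, and fold changes are on the log2 scale with a standard error (SE). A member is called changed where the Benjamini-Hochberg adjusted p of edgeR's quasi-likelihood test over all tested genes was under 0.05.

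On average, transcripts of the standard proteasome were highest in WSD and lowest in T+WSD. Summed over the 34 members, the level was 2477 ± 304 CPM in WSD (SD, n = 6), 2187 ± 221 in C, 2165 ± 277 in T and 2004 ± 86.4 in T+WSD. WSD had the highest of the 4 group means for 28 of 34 members, where this held for 21.7% of all tested genes. These 28 comprised all 17 subunits of the 19S particle, 10 of the 11 constitutive core subunits and the activator PSME3. T+WSD had the lowest group mean for 23 of 34 members, against 38.7% of all tested genes. Without the interferon-inducible PSMB8, PSMB9, PSME1 and PSME2, T+WSD was lowest for 19 of 30 members, C for 7 and T for 4. In the summed level all neighbouring groups in this order overlapped, and the means of C and T lay closer to each other than their SDs. In the other 16 libraries WSD had the highest mean for 31 of 34 members, while the lowest mean was that of T+WSD for 15 and that of T for 14.

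For each animal, a mean level was formed over the members of a set, as log2 CPM centred on the mean of C. For the 17 regulatory subunits this level was 0.22 ± 0.18 in WSD (SD, n = 6), 0.01 ± 0.12 in T and -0.07 ± 0.05 in T+WSD, around a C spread of 0.11. The 11 constitutive core subunits gave 0.21 ± 0.20 in WSD, -0.04 ± 0.21 in T and -0.11 ± 0.06 in T+WSD, around a C spread of 0.18. In both sets the mean over all 6 animals was highest in WSD and lowest in T+WSD. In the core set T13 and T14, both libraries with the dominant gene, were the highest T animals, at 0.27 and 0.13. In the other 16 libraries the T animals lay within -0.29 to -0.06 in the core set. The T+WSD animals of those libraries lay within -0.17 to -0.02, so the order of T and T+WSD rested on the dominant-gene libraries. WSD animals were the most spread in the regulatory set, with WSD24 at 0.47 as the highest and WSD19 at -0.04 as the lowest. The T+WSD animals lay within -0.12 to 0.01 in that set.

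**Figure D1:**
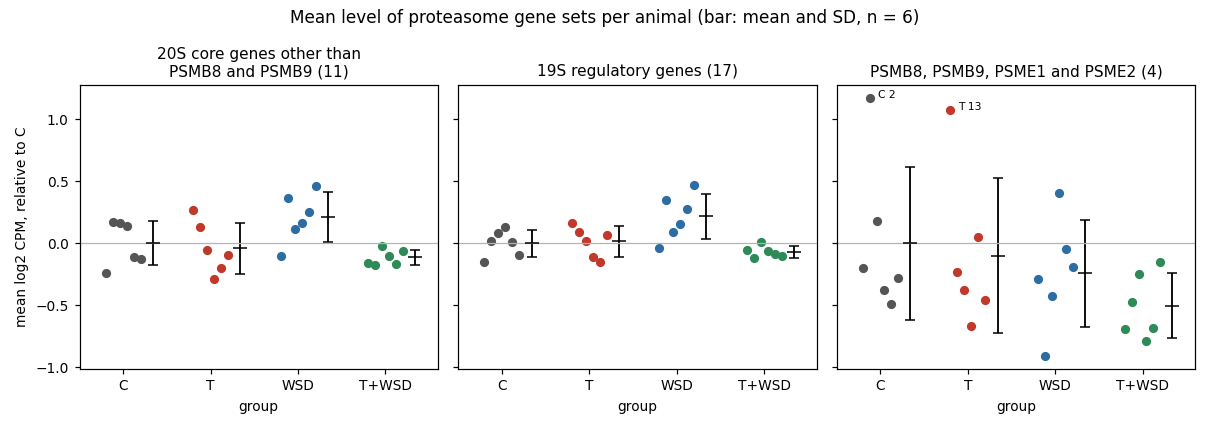
Mean log2 CPM per animal, relative to the mean of C, of the 11 constitutive core genes, the 17 regulatory genes and the 4 interferon-inducible genes; each point is an animal and the bar is the group mean with its SD (n = 6). By the mean over all 6 animals, the first and second panels have WSD on top and T+WSD lowest. In the first panel the order of T and T+WSD rests on the libraries with the dominant gene. In the third panel animals C2 and T13 stand above the other 22.

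The effect of the diet alone was addressed by WSD against C. Here 29 of 34 members had a higher mean estimate in WSD, where 47.6% of all tested genes did, and the median log2 difference was 0.19 against -0.02 over all tested genes. No member was called, and neither was any other gene (0% of genes tested), with a smallest adjusted p among members of 0.131. At an unadjusted p under 0.05, 16 of 34 members were higher and 0 lower, against 9.59% and 8.87% of all tested genes. DESeq2 called 3 members higher, PSMD4, PSMD11 and PSMD12, and called 389 genes in all.

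PSMD12, a lid subunit, had the smallest p of the members in this comparison. Its level ran from 36.1 through a median of 44.0 to 51.1 CPM in C, and from 44.8 through 59.8 to 66.3 CPM in WSD. In WSD, 4 of 6 animals were above every C animal, and WSD19 and WSD23 lay within the C range. The log2 difference was 0.37 (SE 0.09, adjusted p = 0.131, edgeR quasi-likelihood test).

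PSMD11, a lid subunit whose amount limits assembly of the capped proteasome in several cell types, ran from 31.7 through 35.6 to 38.1 CPM in C and from 34.1 through 42.6 to 50.2 CPM in WSD. In WSD, 5 of 6 animals exceeded every C animal, and again WSD19 was the exception. The log2 difference was 0.27 (SE 0.08, adjusted p = 0.136). PSMD4, a ubiquitin receptor of the cap, averaged 64.7 ± 6.02 CPM in C and 79.0 ± 10.95 in WSD (log2 difference 0.29, SE 0.09, adjusted p = 0.139). PSMB5, the constitutive chymotrypsin-like catalytic subunit, averaged 88.9 ± 12.3 CPM in C and 112 ± 23.04 in WSD (0.34, SE 0.12, adjusted p = 0.167). Without WSD19, PSMD12 (0.43, adjusted p = 0.0380) and PSMD11 (0.33, adjusted p = 0.0493) passed the threshold by the same test.

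Of the 11 non-ATPase regulatory subunits, 8 were higher at an unadjusted p under 0.05, and their median difference was 0.27. The 6 ATPases had a median of 0.16 with 2 of 6 at that p, the 6 alpha subunits 0.21 with 3 of 6, and the 4 non-catalytic beta subunits 0.18 with 1 of 4. The exceptions to the upward direction were PSMA2, an alpha ring subunit, at -0.02, and the interferon-inducible genes PSMB8, PSMB9, PSME1 and PSME2, with differences of -0.44 to -0.19. None of those 5 passed an unadjusted p under 0.05. In the 16 libraries 32 members were positive and 2 negative, and PSMB8, PSMB9 and PSME2 were then among the positive, at 0.22, 0.55 and 0.17.

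**Figure D2:**
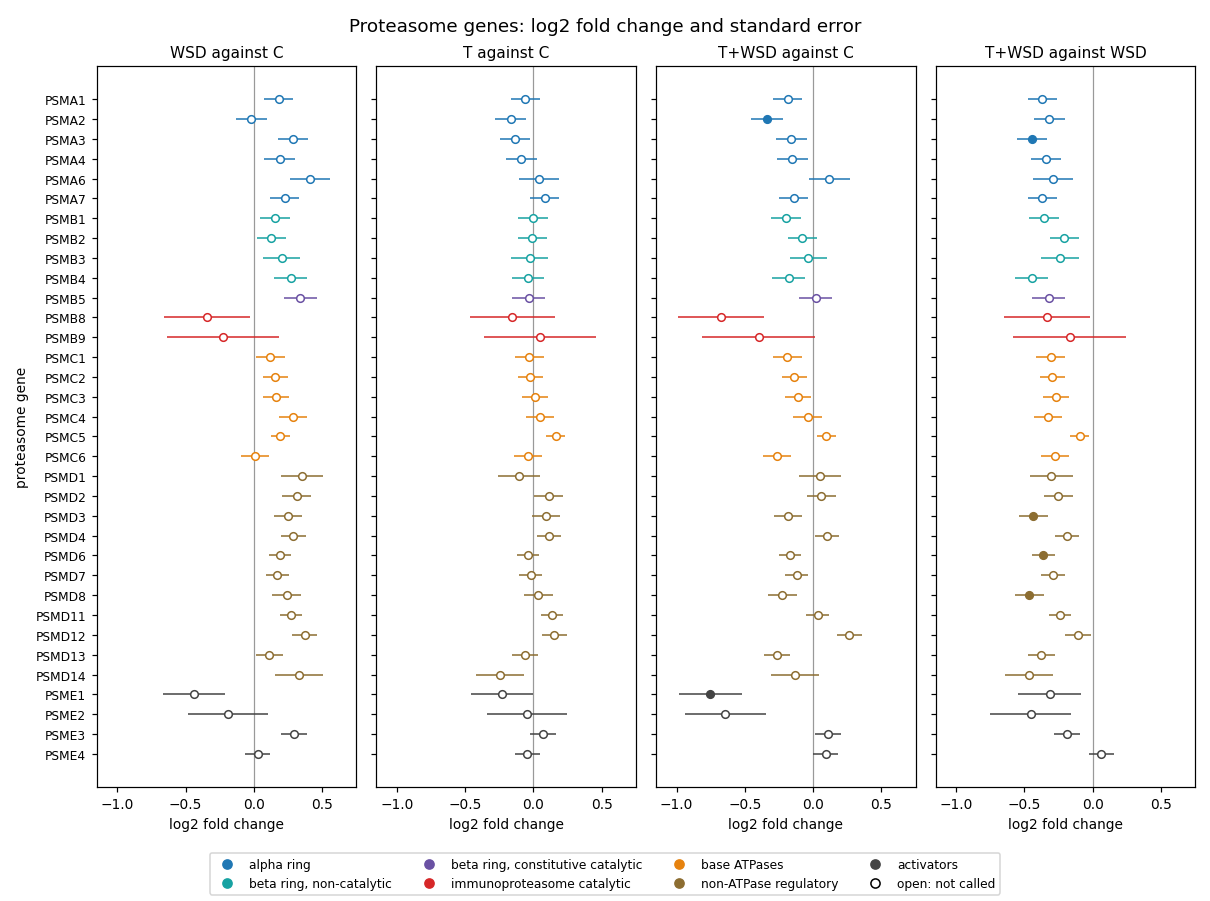
Log2 fold change with its standard error for each of the 34 proteasome genes in 4 comparisons, coloured by subunit class; filled symbols are genes called at an adjusted p under 0.05 and open symbols are not called. Most points lie right of 0 for WSD against C, around 0 for T against C and left of 0 for T+WSD against WSD, with 4 filled symbols in that last panel and 2 for T+WSD against C.

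Testosterone under the control diet was addressed by T against C. The estimates were spread around 0, with 13 members higher and 21 lower, where 53.5% of all tested genes were lower, and a median of -0.03, against -0.02 over all tested genes. No member was called in this comparison, by edgeR or by DESeq2 (0% of tested genes were called by edgeR), and 1 of 34 passed an unadjusted p under 0.05, where 8.63% of all tested genes did. That member was PSMC5, an ATPase of the cap, which ran from 38.6 through 39.3 to 43.6 CPM in C and from 40.2 through 45.1 to 48.8 CPM in T. In T, 4 of 6 animals were above every C animal. The log2 difference was 0.16 (SE 0.07, adjusted p = 0.548, edgeR quasi-likelihood test). The next smallest p values belonged to PSMD11 (0.13, SE 0.08, adjusted p = 0.648) and PSMD12 (0.15, SE 0.09, adjusted p = 0.650). In the 16 libraries 7 members were higher and 27 lower with a median of -0.11, and the 4 at an unadjusted p under 0.05 were all lower, namely PSMA2 (-0.27), PSMA3 (-0.31), PSMD1 (-0.37) and PSMD14 (-0.57).

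Testosterone under the western-style diet was addressed by T+WSD against WSD, which shares no animal with T against C. It does share its WSD animals with WSD against C, so the differences in those comparisons are not independent. Of the 34 members, 33 had a lower estimate in T+WSD, where 54.6% of all tested genes did, and the median was -0.31 against -0.03 over all tested genes. PSMD8, PSMD6, PSMD3 and PSMA3 fell and no member rose. These 4 of 34 compare with 0.940% of tested genes called lower, 0.730% called higher and 1.67% called in all. At an unadjusted p under 0.05, 22 of 34 were lower and 0 higher, against 12.1% and 7.90% of all tested genes. For 6 members, PSMA7, PSMD3, PSMD6, PSMD7, PSMD8 and PSMD13, every T+WSD animal was below every WSD animal, which held for 1.37% of all tested genes. In bulk tissue, fewer cells of a type and less RNA per cell cannot be told apart for any of these differences.

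PSMD8 (ENSMMUG00000038221), a lid subunit, ran from 79.5 through 97.1 to 134 CPM in WSD and from 71.4 through 73.8 to 77.9 CPM in T+WSD. The groups did not overlap, WSD20 and WSD24 were highest, and the T+WSD animals were tightly packed. It fell by 0.46 on the log2 scale (SE 0.11, adjusted p = 0.0344, edgeR quasi-likelihood test). Its mean in C was 86.6 ± 9.80 CPM and in T 88.8 ± 7.02 CPM.

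PSMD6 (ENSMMUG00000001509), another lid subunit, ran from 49.4 through 55.6 to 66.5 CPM in WSD and from 37.7 through 44.6 to 47.6 CPM in T+WSD. Again no T+WSD animal reached the WSD range, and T+WSD7 was lowest. The gene fell by 0.36 (SE 0.08, adjusted p = 0.0344).

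PSMD3 (ENSMMUG00000020382), a scaffold subunit of the lid, ran from 96.6 through 110.1 to 146 CPM in WSD and from 82.7 through 88.1 to 91.9 CPM in T+WSD. The ranges were again separate, with WSD20 and WSD24 far above the other 4 WSD animals. The decrease was -0.43 (SE 0.10, adjusted p = 0.0370).

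PSMA3 (ENSMMUG00000003509), an alpha ring subunit of the core, ran from 33.8 through 44.0 to 51.4 CPM in WSD and from 28.6 through 30.6 to 36.3 CPM in T+WSD. Of the 6 T+WSD animals, 4 were below every WSD animal, and WSD19 was the WSD animal inside the T+WSD range. The decrease was -0.44 (SE 0.11, adjusted p = 0.0425). None of the 4 decreases reached the fold change of 1.5 that the study required for a differentially expressed gene (DEG), which 0.381% of tested genes did in the lower direction.

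**Figure D3:**
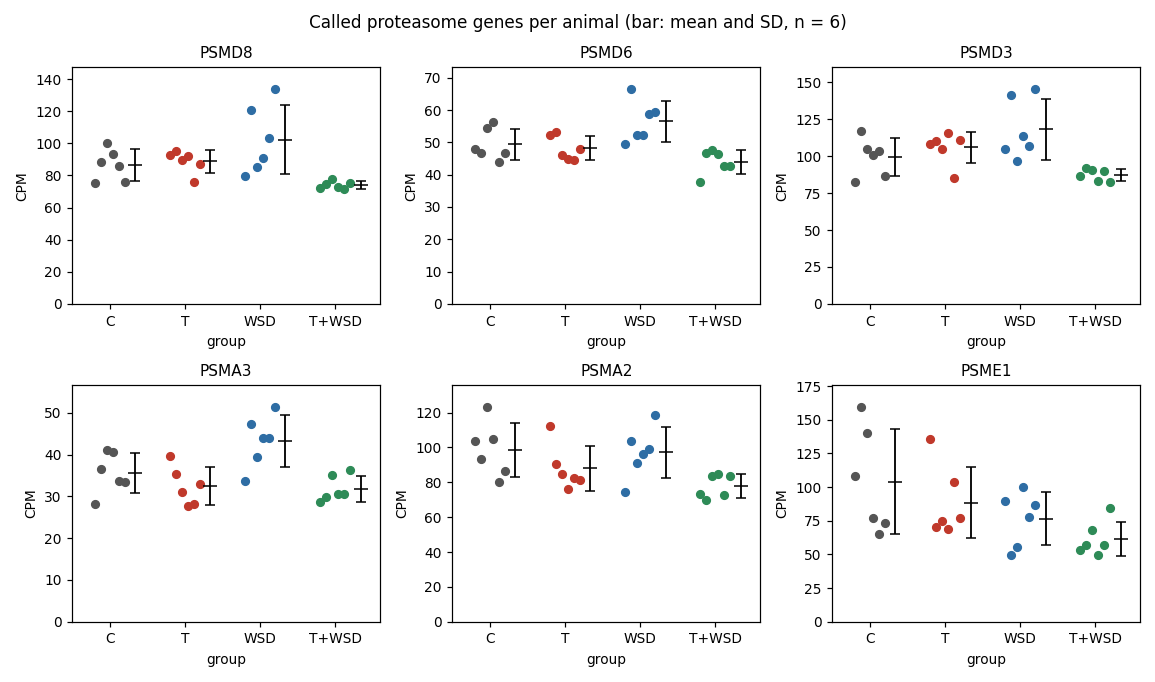
CPM per animal of the 6 proteasome genes called in any comparison, by group; each point is an animal, the bar is the group mean with its SD (n = 6) and the axes start at 0. T+WSD lies wholly below WSD for PSMD8, PSMD6 and PSMD3, overlaps it for PSMA3 and PSMA2, and overlaps C for PSME1.

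Among the sets, all 17 regulatory subunits had lower estimates in T+WSD than in WSD, with a median of -0.29 and 14 of 17 at an unadjusted p under 0.05. The 11 constitutive core subunits were likewise all lower, with a median of -0.34 and 8 of 11 at that p. PSMB5 was among the latter, at -0.32 (SE 0.12, adjusted p = 0.137, edgeR quasi-likelihood test). PSME4, the nuclear activator also known for histone turnover, was the member with a higher estimate, at 0.06 (SE 0.09). The 4 interferon-inducible genes differed by -0.45 to -0.17, with SEs of 0.23 to 0.41, and none passed an unadjusted p under 0.05.

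The calls in this comparison depended on single animals. All 4 were lost without WSD20, without WSD24 or without any 1 of the 6 T+WSD animals. Without WSD19, 9 members were called, and without WSD21, 10. The share of all tested genes called in those fits is not given here. Without C2, 2 members were called, and without WSD23, 1 member. PSMA3 was also lost without C2, T15, T18, WSD22 or WSD23, PSMD6 without C2 or WSD23, and PSMD8 without WSD23, and adjusted p values over all fits with an animal left out ran up to 0.119. Each kept its direction, as PSMD8 lay between -0.53 and -0.37, PSMD3 between -0.49 and -0.37, PSMD6 between -0.40 and -0.31 and PSMA3 between -0.50 and -0.39 over the 24 fits with an animal left out. In the 16 libraries in which the dominant gene took at most 2.51% of counts, the median over the 34 members was -0.32 with 33 lower and 26 at an unadjusted p under 0.05, although no gene at all was called with 4 animals in each group.

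Markers of mesothelial cells, the lining of the omentum, moved with the groups. The summed CPM of 9 mesothelial markers was 2722 to 38893 in C, 2784 to 17570 in T, 707 to 5977 in WSD and 235 to 3070 in T+WSD. Of these 9 markers, 8 fell in T+WSD against C, beside 9.94% of all tested genes called lower. In T+WSD against WSD 0 were called, with 6 at an unadjusted p under 0.05 and 3 called lower by DESeq2. The summed adipocyte markers were 9750 to 24409 CPM in WSD and 14575 to 22841 in T+WSD, and the summed endothelial markers 1333 to 2122 in WSD and 1741 to 2756 in T+WSD. The 6 smooth muscle and pericyte markers summed to 612 to 1316 CPM in WSD and 1228 to 1724 in T+WSD, and the 7 macrophage markers to 425 to 832 and 530 to 1002. In T+WSD against C, 2 of 6 smooth muscle and pericyte, 2 of 7 macrophage, 1 of 8 adipocyte and 4 of 7 endothelial markers rose. Of all tested genes, 7.18% were called higher there. In T+WSD against WSD edgeR called 0 markers of these lists. DESeq2 called TAGLN of smooth muscle and ITGAX of macrophages higher there. The part of these cell types in the proteasome levels was not tested. With the mesothelial mean as a covariate, the median of the members was -0.22 in T+WSD against WSD, 33 of 34 stayed lower and 0 were called, with 1 gene called over the whole table.

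The interaction asks whether the testosterone effect differed between the diets. Its estimate was negative for 33 of 34 members, where this held for 52.2% of all tested genes, with PSME4 as the exception at 0.11. The median was -0.28, against -0.02 over all tested genes. No member was called at the adjusted p under 0.1 that the study used for interactions, where 0.809% of genes were called. At an unadjusted p under 0.05, 15 of 34 members were negative and 0 positive, against 7.26% and 6.22% of all tested genes. The count at that p was 9 with the mesothelial mean as a covariate and 7 with upper-quartile scaling. In the 16 libraries it was 4, and the median was -0.20. DESeq2 called 3 members, PSMD3, PSMD8 and PSMD11, and 481 of 17391 genes in all. The smallest p values were those of PSMD3 (-0.53, SE 0.15, adjusted p = 0.127, edgeR quasi-likelihood test), PSMD8 (-0.50, SE 0.15, adjusted p = 0.145) and PSMD11 (-0.37, SE 0.11, adjusted p = 0.160). Leaving out C2 or T17 brought PSMD3 under 0.1, at 0.0961 and 0.0780, and leaving out WSD19 or WSD21 brought all of PSMD3, PSMD8 and PSMD11 under it, at 0.0524 to 0.0983.

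The same interaction can be read from the diet side. Without testosterone the diet estimate was above 0 for 29 members, and with testosterone, in T+WSD against T, for 7. For 22 of 34 members it was above 0 without and below 0 with testosterone, which held for 19.9% of all tested genes. At an unadjusted p under 0.05, the interaction estimate was negative for 11 of 17 subunits of the 19S particle. It was so for 4 of 11 in the constitutive core, beside 7.26% of all tested genes. No member was called in the fit reported here. The 4 interferon-inducible genes had interaction estimates of -0.40 to -0.08 with adjusted p values of 0.750 and above.

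**Figure D4:**
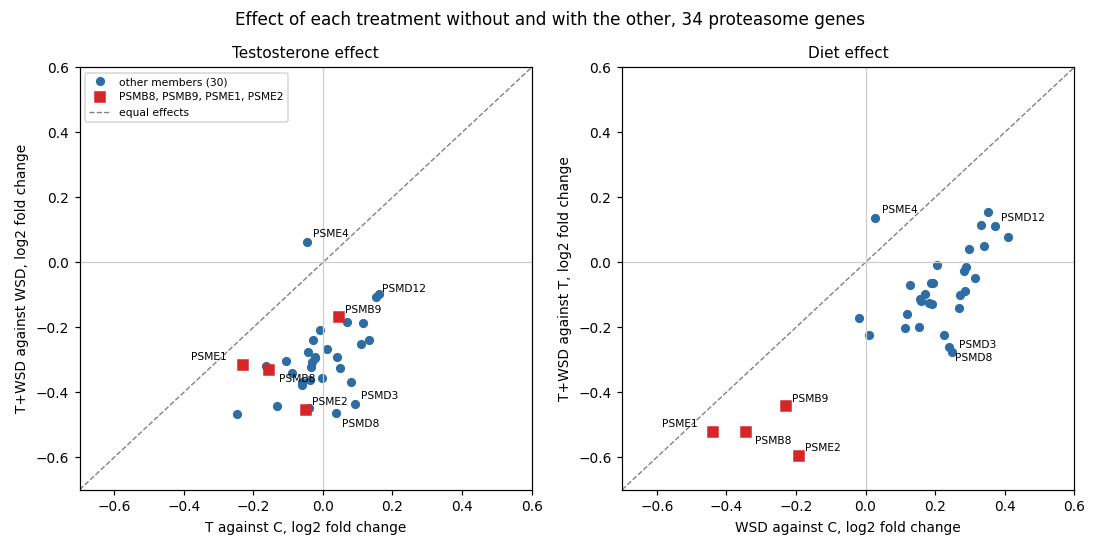
Log2 fold change of each of the 34 proteasome genes for testosterone without and with the western-style diet (left) and for the diet without and with testosterone (right); the axes of a panel rest on different animals, and the dashed line marks equal effects. All genes but PSME4 lie below the dashed line, 33 of 34, and the 4 interferon-inducible genes (squares) lie apart at the lower left of the diet panel.

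The combined treatment was addressed by T+WSD against C. Here 24 of 34 members had a lower estimate, where 54.9% of all tested genes did, with a median of -0.14 against -0.04. PSMA2 and PSME1 fell, and no member rose in the fit reported here. This is 2 of 34 members, in a comparison where 9.94% of all tested genes were called lower, 7.18% higher and 17.1% in all. At an unadjusted p under 0.05, 7 members were lower and 1 higher, against 18.4% and 13.7% of all tested genes.

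PSME1 (ENSMMUG00000012462), the alpha subunit of the interferon-inducible activator, ran from 65.4 through 92.5 to 160 CPM in C and from 49.5 through 57.1 to 84.3 CPM in T+WSD. C1, C2 and C3 were the high controls at 108 to 160 CPM, and 4 of 6 T+WSD animals were below every C animal. It fell by 0.75 (SE 0.23, adjusted p = 0.0284, edgeR quasi-likelihood test) and was the only member past the fold change of 1.5, where 5.29% of all tested genes were DEGs in the lower direction. Without C2 the difference was -0.56 (adjusted p = 0.0862), and the call was also lost without C1, C3, T+WSD7, T+WSD8, T+WSD10 or T+WSD11, at adjusted p values up to 0.0766. With the mesothelial mean as a covariate the difference was -0.35 (adjusted p = 0.9999) and in the 16 libraries -0.44 (adjusted p = 0.317). In the reference gene order PSME1 overlaps EMC9 and adjoins PSME2, and the strand setting of the counting is not given in the sources used here.

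PSMA2 (ENSMMUG00000022451), an alpha ring subunit, ran from 79.9 through 98.6 to 123 CPM in C and from 69.8 through 78.4 to 84.8 CPM in T+WSD. The groups overlapped, with C3 the highest control and 3 T+WSD animals below every C animal. It fell by 0.34 (SE 0.11, adjusted p = 0.0446). The call was lost, at adjusted p values of 0.0511 to 0.125, without C1, C2, C3, C4, T15 or any 1 of the 6 T+WSD animals. PSMA2 was also not called in 6 of 10 other settings, with -0.12 under the mesothelial covariate and -0.26 in the 16 libraries (adjusted p = 0.231).

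PSMD12 differed in the opposite direction from most members. It averaged 57.03 ± 7.73 CPM in WSD, 53.0 ± 3.51 in T+WSD, 49.0 ± 4.72 in T and 44.1 ± 5.15 in C, so that C was the lowest group. The T+WSD difference from C was 0.27 (SE 0.09, adjusted p = 0.0535, edgeR quasi-likelihood test; 0.0273 by DESeq2), and it was called higher with RLE or upper-quartile scaling. It passed the threshold without C4, C5, T17, WSD19, WSD20 or T+WSD12. With the mesothelial mean as a covariate, the median of the members in T+WSD against C was -0.01, 16 of 34 estimates were above 0, and no gene of the table was called. In the 16 libraries, 0 members were called and the median was -0.11.

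The effect of the diet under testosterone was addressed by T+WSD against T. Here 27 of 34 members had a lower estimate, where 53.8% of all tested genes did, with a median of -0.11 against -0.03. No member was called by edgeR or by DESeq2, while 6.50% of all tested genes were called by edgeR. At an unadjusted p under 0.05, 5 members were lower, namely PSMD3 (-0.28, SE 0.10), PSMD8 (-0.26, SE 0.11), PSME1 (-0.52, SE 0.23), PSMC6 and PSMA7. A share of 14.3% of all tested genes was lower at that p. In the 16 libraries the median was 0.01, with 18 members above 0 and 16 below.

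The interferon-inducible genes varied most between animals of a group. PSMB8, PSMB9, PSME1 and PSME2 had within-group SDs of 0.41 to 0.70 on the log2 scale, with a median of 0.52, while the other 30 members ranged from 0.11 to 0.32 with a median of 0.18, and all tested genes had a median of 0.32. WSD was the highest group for none of the 4, C was highest for 3 and T for PSMB9, and T+WSD was lowest for all 4. This order rested on C2 and T13: without both animals, a subset chosen after seeing the data, and likewise in the 16 libraries, WSD was highest for 3 of 4, PSME1 being the exception, and T+WSD lowest for 3 of 4. Their mean level per animal, relative to C, was -0.10 ± 0.63 in T (SD, n = 6), -0.24 ± 0.43 in WSD and -0.50 ± 0.26 in T+WSD, beside an SD of 0.62 in C itself. Without C2 the mean of C fell by 0.23, and the differences from C became -0.01 for WSD, 0.13 for T and -0.27 for T+WSD. In the 16 libraries WSD was above C by 0.18.

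PSMB8, the inducible counterpart of PSMB5, ran from 23.4 through 35.3 to 86.8 CPM in C and from 21.4 through 29.3 to 77.1 in T. With the diet it ran from 16.5 through 30.2 to 52.7 in WSD and from 19.9 through 25.8 to 30.3 in T+WSD. C2 and T13 were the high animals, and all 4 groups overlapped. T+WSD against C gave -0.68 (SE 0.32, adjusted p = 0.142, edgeR quasi-likelihood test), and -0.29 without C2.

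PSMB9, the inducible counterpart of PSMB6, ran from 12.8 through 15.7 to 61.9 CPM in C and from 13.03 through 17.1 to 57.1 in T. With the diet it ran from 8.67 through 17.9 to 37.7 in WSD and from 12.7 through 16.6 to 23.5 in T+WSD. Again C2 and T13 were highest, and the medians of the 4 groups lay between 15.7 and 17.9 CPM. T+WSD against C gave -0.40 (SE 0.42, adjusted p = 0.546), which turned to 0.18 without C2 and to 0.19 in the 16 libraries.

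PSME2, the beta subunit of the inducible activator, ran from 30.7 through 35.1 to 87.3 CPM in C and from 23.4 through 34.7 to 96.6 in T. With the diet it ran from 30.8 through 38.7 to 45.3 in WSD and from 22.6 through 26.7 to 35.5 in T+WSD. C2 and T13 again stood far above the others. T+WSD against C gave -0.64 (SE 0.30, adjusted p = 0.137) and -0.32 without C2.

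**Figure D5:**
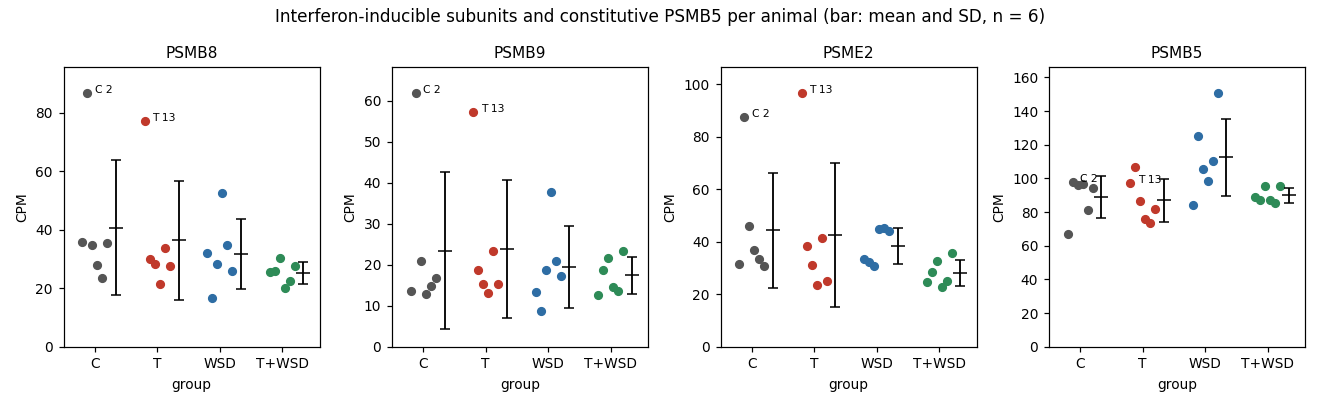
CPM per animal of the interferon-inducible PSMB8, PSMB9 and PSME2 and of constitutive PSMB5, by group; each point is an animal, the bar is the group mean with its SD (n = 6) and the axes start at 0. Animals C2 and T13 are highest in their groups for the inducible genes; for PSMB5 they lie at 97.8 and 97.2 CPM, within the range of the other 22 animals.

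The same animals stood out in genes of the interferon response that were not members. IRF1, which activates the inducible subunit genes, was 128 CPM in C2 and 108 in T13, against 21.4 to 99.3 in the other 22 animals, and TAPBP, the peptide loading factor tapasin, was 123 and 156 against 64.3 to 107. NLRC5, the MHC class I transactivator, did not stand out, at 127 and 110 CPM against 21.4 to 199.6. Summed T and NK cell markers were 8.70 CPM in C2 and 9.79 in T13, against 1.41 to 10.9 in the other animals. The B and plasma cell markers, by contrast, summed to as much as 7.72 CPM in a control animal, where the median of C was 2.24. No animal outside C exceeded 4.64 CPM for that sum. Which control had the highest value is not given here. C2 and T13 are both among the 8 libraries with the dominant gene, and the part of that feature in these levels was not tested. PSMB8 and PSMB9 lie beside TAP1 and TAP2 in the reference gene order, and PSMB9 overlaps TAP1, so reads there could be shared.

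The exchange of PSMB5 for PSMB8 was followed as the log2 ratio of PSMB8 to PSMB5 within an animal, in which library size cancels. The ratio was -1.88 ± 0.74 in WSD (SD, n = 6), -1.84 ± 0.17 in T+WSD, -1.38 ± 0.57 in T and -1.25 ± 0.62 in C. The ranges overlapped in all groups, from -1.80 to -0.17 in C and from -2.13 to -1.65 in T+WSD. Transcript lengths differ, so only the differences between groups can be read, and against C these were -0.63 in WSD, -0.58 in T+WSD and -0.12 in T. Without C2 they became -0.42, -0.37 and 0.09, and in the 16 libraries -0.14, -0.26 and 0.09. The other exchanged pairs could not be followed, since PSMB6, PSMB7 and PSMB10 had no ID.

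Of the assembly and associated factors, 14 of 17 had an ID, and 1 rose and 1 fell in T+WSD against C, where 17.1% of all tested genes were called. USP14, the deubiquitinase that docks on the cap, rose by 0.49 (SE 0.10, adjusted p = 0.00452, edgeR quasi-likelihood test) and PSMG1, a chaperone of alpha ring assembly, fell by 0.43 (SE 0.11, adjusted p = 0.0118). USP14 rose by 0.42 in T+WSD against T, and PSMG1, at -0.44, and PSMD5, a chaperone of the cap base, at -0.29, fell there. None of the 14 was called by edgeR in WSD against C, T against C, T+WSD against WSD or the interaction, with 1 or 2 genes at an unadjusted p under 0.05 in each, and DESeq2 called USP14 higher in WSD against C.

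NFE2L1 raises proteasome genes when protease activity is short, and a list of it and related factors had 7 of 8 genes with an ID. The list also held NFE2L2 and KEAP1, which belong to a related stress response. NFE2L1 itself was not called in any comparison, with -0.24 (SE 0.13) in T+WSD against C and -0.11 (SE 0.13) in T+WSD against WSD. In T+WSD against C 4 of the 7 were called, beside 17.1% of all tested genes, and with the mesothelial mean as a covariate no gene of the table was called. NFE2L2, the related stress factor, fell by 0.43, KEAP1, which targets NFE2L2 for degradation, fell by 0.41, NGLY1, the deglycosylase that activates NFE2L1, fell by 0.25, and MAFG, a small Maf partner, rose by 0.44. KEAP1 also fell in T+WSD against WSD (-0.41) and, with NGLY1 (-0.34), in T+WSD against T (-0.43). Of the 12 ubiquitin and shuttle genes, UFD1, a cofactor of the segregase that delivers ubiquitylated proteins, fell by 0.40 in T+WSD against WSD, and RAD23B, a shuttle receptor, rose by 0.45 in T+WSD against T. None of the 9 mapped genes of MHC class I processing was called by edgeR in any of the 6 comparisons. At an unadjusted p under 0.05 there were 2 in T+WSD against C and 2 in WSD against C, and DESeq2 called NLRC5 higher in T+WSD against C (0.85, adjusted p = 0.0491).

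The chaperonin TRiC, a ring complex that folds cytosolic proteins, is a complex of similar housekeeping role and was compared as a reference. The study lists its subunit CCT8 among the genes that the combined treatment lowered synergistically, so it is not an unchanged reference. Between T+WSD and WSD, 5 of its 8 subunits fell, with a median over the 8 of -0.41, against 4 of 34 and -0.31 for the proteasome. Of all tested genes, 0.940% were called lower there. In WSD against C, the TRiC median was 0.17 and that of the proteasome 0.19, with no call in either by edgeR and 1 TRiC subunit at an unadjusted p under 0.05. The interaction medians were -0.33 and -0.28. Against C, 4 of 8 TRiC subunits fell in T+WSD with a median of -0.22, against 2 of 34 and -0.14. Of all tested genes, 9.94% were called lower in that comparison. The difference between the complexes was not tested, and both sets of values come from the same libraries.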

How the data were processed

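RNA was extracted from omental WAT, and ribosome-depleted libraries from total RNA of RIN over 8 were sequenced by the authors. Per the labels, reads were checked with FastQC 0.11.5, trimmed with Trimmomatic 0.36 and aligned with STAR 2.5.2b to the rheMac8 assembly, and DESeq2 1.18.1 was used for testing; the counting tool, its strand setting and the annotation release behind the counts are not given in the sources used here. The deposited table held raw counts per Ensembl gene for the 24 animals, with 0 columns of other series, and no normalization had been applied. The members and gene lists were chosen with earlier results of these data known.

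IDs were matched to symbols with a gene name table (33 members) or the study's gene tables (1 member). Genes were filtered with filterByExpr (minimum count 10, minimum total 15) and fitted over all 4 groups with TMM scaling and the robust quasi-likelihood test of edgeR 4.0.16 in R 4.3.3, with Benjamini-Hochberg adjustment over 15207 genes. SE was the log2 fold change divided by the square root of F. A call needed an adjusted p under 0.05 (0.1 for the interaction), and a DEG also a fold change over 1.5. Log2 levels used a prior count of 2. Named members were those called in any of the 6 contrasts, the 3 with the smallest p in each contrast, the exchanged catalytic subunits, PSME1 and PSME2; PSMC6, PSMA7, PSME3, PSME4 and the members without overlap were named after their values were seen. Related genes were named where called; the genes compared in C2 and T13 and NFE2L1 were named after their values were seen. Intervals reflect the spread between animals, and counts of members per library limit precision for the lowest genes. The fit was also run on simulated counts with known changes in T+WSD only. Genes were drawn independently, without libraries of a dominant gene or outlying animals, so that run does not bear on these features. Alternatives were RLE and upper-quartile scaling, no filter or 10 counts in every animal, only the groups compared, a mesothelial or a library covariate, the 16 libraries with at most 2.51% of counts in the dominant gene, legacy=FALSE, DESeq2 1.42.0, a fold change threshold, and leaving out each animal in turn; for the inducible genes, subsets without C2 or T13 were added after seeing the data. Gene order came from the RefSeq annotation of another assembly (T2T-MMU8v2.0), so no coordinates are given.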

Additional observations from a re-analysis of the deposited data

Results flagged for a closer look

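Among 136 pairs of member and group, 10 had an animal far from the other 5 (gap over range above 0.625, Dixon's critical value for 6 samples). Chance alone flags about 1 in 20 such groups. Animal C2 was the highest control for PSMB8 (86.8 CPM, next 35.9), PSMB9 (61.9, next 21.01), PSME2 (87.3, next 46.1) and PSMB2, a non-catalytic beta subunit (33.8, next 26.6). Animal T13 was the highest of T for PSMB8 (77.1 CPM, next 33.7), PSMB9 (57.1, next 23.4) and PSME2 (96.6, next 41.3). So 6 of the 10 were interferon-inducible genes in the same 2 animals.

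The remaining cases were single genes. PSMB2 was 29.2 CPM in T+WSD9 (next 25.7), PSMC6, an ATPase of the cap, was 17.9 CPM in WSD24 (next 14.3), and PSMD3 was 85.0 CPM in T17, below the next T animal at 105 CPM.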

How the results depend on the processing

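The count of called members depended on the setting. Over all alternatives, medians over the members ran from -0.17 to -0.01 in T+WSD against C (-0.14 as reported; -0.01 with the mesothelial covariate), from -0.15 to 0.01 in T+WSD against T (-0.11; 0.01 in the 16 libraries) and from -0.11 to 0.03 in T against C (-0.03; -0.11 in the 16 libraries). In T+WSD against C, 2 members were called, and 1 with a required fold change, 1 without the filter, 1 with the library covariate, 0 with the mesothelial covariate and 0 in the 16 libraries, while 3 (1 higher, PSMD12, and 2 lower) were called with 10 counts in every animal, with legacy=FALSE and by DESeq2, and PSMD12 higher and PSME1 lower with RLE and upper-quartile scaling (range with an animal left out 0 to 4: 0 without C1, C2, C3, T+WSD7, T+WSD8, T+WSD10 or T+WSD11, 1 without T15 or T+WSD9, 4 without C5). Genes called in all in T+WSD against C were 2603 of 15207 as reported and 2014 of 25131 without the filter. They were 2543 with the library covariate, 0 with the mesothelial covariate and 84 of 15448 in the 16 libraries. With 10 counts in every animal they were 2256 of 11401, with legacy=FALSE 2833 and by DESeq2 3210 of 17391. RLE and upper-quartile scaling gave 2545 and 2564. In T+WSD against WSD, 4 members were called (range with an animal left out 0 to 10). The count was 0 with a required fold change, upper-quartile scaling, only the groups compared, the mesothelial covariate and the 16 libraries. Genes called in all were 184 of 15207 with upper-quartile scaling and 72 of 14555 with only the groups compared. They were 1 with the mesothelial covariate and 0 in the 16 libraries. DESeq2 called 9 members, and 809 of 16445 genes in all. In WSD against C, 0 became 3 by DESeq2 (range 0 to 2, the 2 without WSD19), which called 389 of 15027 genes in all. In T+WSD against T, 0 became 2 with only the groups compared (range 0 to 0), where 2002 of 14565 genes were called. In the interaction 0 became 3 by DESeq2 (range 0 to 3), which called 481 of 17391 genes. In T against C the count was 0 in all alternatives run. PSMB9 in T+WSD against C reversed, from -0.40 to 0.19 in the 16 libraries and to 0.18 without C2 (range with an animal left out -0.53 to 0.18). The 16 libraries hold 4 animals per group, and fewer samples make fewer calls; other causes were not tested. For the log2 ratio of PSMB8 to PSMB5 in T minus C, -0.12 became 0.09 without C2 and -0.33 without T13. No paired analysis was possible because the labels number the animals 1 to 24 and the groups share no number.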
